A study of Mus musculus with 19 samples.

Results

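Acetylation of histone H3 at lysine 27 (H3K27ac) was examined at 146 intergenic regions in mouse microglia. The regions had little of the mark in resting cells and much more in CD11c-high cells of mice fed cuprizone. The regions were selected on these values. Each was listed as higher in WT CD11c-high than in WT basal microglia, had at most 15 normalized tags in both WT basal libraries and at least 60 in both WT CD11c-high libraries, was annotated as intergenic, lay less than 100 kb from the nearest transcription start and was less than 5 kb wide. They were 146 of the 5571 listed peaks that were higher in CD11c-high (2.62%), and 146 of the 1658 such peaks that met the limits on annotation, distance and width (8.81%). A normalized tag is a sequencing read after scaling of the libraries of a comparison to a common depth. Because the contrast of CD11c-high with basal chose the regions, its values are given as a description and were not tested.

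Microglia are the resident macrophages of the brain. H3K27ac is laid down by histone acetyltransferases at active promoters and enhancers, and an enhancer is a stretch of DNA, often far from any gene, that binds transcription factors and raises the transcription of a gene in its neighbourhood. In macrophages the factors PU.1, C/EBP, AP-1 and IRF are known to bind enhancers, and stimulated macrophages can gain the mark at sites that were unmarked at rest. The nearest gene, by which a region is named here, need not be its target.

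The mice were C57BL/6. KO CD11c-low microglia came from PRMT1fl/fl; cx3r1cre-ert2 mice, in which a tamoxifen-inducible Cre under the Cx3cr1 promoter removes the arginine methyltransferase PRMT1 from microglia and from other cells that express Cx3cr1, and which were fed 0.2% cuprizone for 5 weeks. Microglia labelled WT CD11c-high or WT CD11c-low came from floxed mice without Cre (labelled PRMT1Ifl/fl) on the same diet, and WT basal microglia from such mice on a normal diet, labelled 11 weeks. Cuprizone chelates copper and thereby causes oligodendrocyte death and demyelination, and CD11c, the integrin encoded by Itgax, was used to sort the cells. Each of the 4 groups had 2 H3K27ac libraries, described by the submitters as independent biological replicates, among 19 samples that also held 2 KO basal H3K27ac libraries, not analysed here, and 9 inputs. A WT and KO pair was thus available for CD11c-low cells, and no KO CD11c-high library was analysed here. No listed peak was nearest to Prmt1 (0 peaks), so the lists do not check the deletion.

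Relative to the mean of the 8 libraries, depth was 56.2% and 85.1% in WT basal and 100.1% to 118% in the other 6. The shallower basal libraries touch each low basal value, which is why reads are given beside tags. Microglial identity could be read only from RNA means of the same study, where 7 of 8 microglial markers were found and stood at percentiles 99.1 to 100.0 in the cuprizone table, and where Itgax stood at percentile 98.3 in the cuprizone table and 62.5 in the basal table. Of the 12 lymphocyte markers found in the cuprizone table, 5 (Cd3d, Cd3e, Cd8a, Ncr1 and Nkg7) were listed at 0 and the list reached percentile 44.8, and 2 of 10 neuronal markers (Gad2 and Nefl) were at 0, with the list at 17.4 to 54.5. None of the other marker lists had a marker at 0. The 16 markers of monocytes and border macrophages lay at percentiles 50.8 to 94.0 (median 61.4), the 14 of oligodendrocytes at 42.5 to 93.9 (62.6), the 9 of astrocytes at 53.8 to 90.4 (60.7) and the 9 of endothelium at 50.1 to 84.4 (63.6). The part of other cells in the results was not tested.

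Sequences of 7 regions are shown because the results turn on them: Igf1 was listed as different between KO and WT cells, Ch25h and Tnfaip3 belong to lists of activation genes, and Dppa3, Alcam, Id3 and Itga5 had the highest H3K27ac of all the regions in CD11c-high. Each stretch is the 300 bases of the region with the most different motifs, in GRCm38 (mm10) and 5′ to 3′. Capitals mark matches to the 12 motifs spelled out with the motif shares.
Igf1 (-16.0 kb), chr10:87842386-87842685, plus strand: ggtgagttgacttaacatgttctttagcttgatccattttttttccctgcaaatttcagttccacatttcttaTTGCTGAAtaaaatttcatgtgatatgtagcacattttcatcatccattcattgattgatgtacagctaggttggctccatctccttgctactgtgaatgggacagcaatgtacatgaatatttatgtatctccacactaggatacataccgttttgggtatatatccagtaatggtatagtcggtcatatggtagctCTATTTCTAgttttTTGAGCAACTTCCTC
Ch25h (+39.4 kb), chr19:34436359-34436658, plus strand: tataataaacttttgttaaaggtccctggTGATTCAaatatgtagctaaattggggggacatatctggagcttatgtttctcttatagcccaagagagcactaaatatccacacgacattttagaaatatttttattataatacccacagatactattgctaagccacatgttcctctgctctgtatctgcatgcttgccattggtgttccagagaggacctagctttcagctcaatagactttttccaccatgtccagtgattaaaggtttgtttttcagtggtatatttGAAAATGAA
Tnfaip3 (+16.0 kb), chr10:18996306-18996605, plus strand: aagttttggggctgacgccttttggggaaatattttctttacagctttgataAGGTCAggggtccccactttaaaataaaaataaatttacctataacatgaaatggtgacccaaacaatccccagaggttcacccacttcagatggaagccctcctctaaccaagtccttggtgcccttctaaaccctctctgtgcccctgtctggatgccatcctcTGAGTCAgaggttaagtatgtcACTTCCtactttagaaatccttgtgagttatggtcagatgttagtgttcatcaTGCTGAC
Dppa3 (+8.7 kb), chr6:122634361-122634660, plus strand: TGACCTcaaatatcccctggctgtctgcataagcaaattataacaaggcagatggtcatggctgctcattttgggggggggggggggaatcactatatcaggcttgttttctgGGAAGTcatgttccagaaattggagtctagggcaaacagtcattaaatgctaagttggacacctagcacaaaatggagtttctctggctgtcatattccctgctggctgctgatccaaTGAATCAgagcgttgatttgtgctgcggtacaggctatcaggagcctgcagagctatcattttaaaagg
Alcam, chr16:52469989-52470288, plus strand: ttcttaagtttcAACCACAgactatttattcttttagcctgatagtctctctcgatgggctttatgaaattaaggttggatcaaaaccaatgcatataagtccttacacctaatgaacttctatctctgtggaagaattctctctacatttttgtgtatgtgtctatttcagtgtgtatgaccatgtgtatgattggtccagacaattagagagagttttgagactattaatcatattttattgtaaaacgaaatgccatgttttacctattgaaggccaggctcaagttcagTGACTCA
Id3, chr4:136123361-136123660, plus strand: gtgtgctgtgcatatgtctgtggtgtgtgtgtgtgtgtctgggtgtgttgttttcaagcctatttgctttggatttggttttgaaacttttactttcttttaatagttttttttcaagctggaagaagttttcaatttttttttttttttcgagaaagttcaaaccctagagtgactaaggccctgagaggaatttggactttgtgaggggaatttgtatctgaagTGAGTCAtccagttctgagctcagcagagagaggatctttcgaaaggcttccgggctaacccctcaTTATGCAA
Itga5, chr15:103382821-103383120, plus strand: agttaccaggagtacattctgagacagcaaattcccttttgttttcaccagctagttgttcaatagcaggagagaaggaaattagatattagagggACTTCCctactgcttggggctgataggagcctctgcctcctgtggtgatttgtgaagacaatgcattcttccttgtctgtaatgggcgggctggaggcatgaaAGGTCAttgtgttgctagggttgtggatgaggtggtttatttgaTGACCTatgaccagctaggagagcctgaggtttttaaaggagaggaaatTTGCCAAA
The stretch 16.0 kb from Igf1 held a PU.1 match, 2 C/EBP matches and a MEF2 match. An AP-1 match stood in 5 of the 7 stretches, those of Ch25h, Tnfaip3, Dppa3, Alcam and Id3. Because each stretch was chosen for its number of different motifs, such counts show no enrichment. In the central 1000 bp used for the motif shares, Dppa3, Alcam and Id3 held an AP-1 match and Ch25h and Tnfaip3 did not. The Itga5 stretch held 2 nuclear receptor sites.

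In the CD11c-high libraries the 146 regions had 68 to 500 reads in replicate 1 and 79 to 555 in replicate 2. In the basal libraries they had 0 to 9 reads (median 4.0) in replicate 1 and 0 to 14 (median 6.0) in replicate 2. No region was at 0 in both basal libraries, 7 were at 0 in replicate 1 and 1 in replicate 2. In tags, the mean over both CD11c-high libraries ran from 62.8 to 436 (median 109), and that over both basal libraries from 1.06 to 14.6 (median 7.02). The 2 CD11c-high libraries gave similar values, with a median ratio of the higher to the lower of 1.10 and a largest ratio of 1.58, at Slc35c1. Among the 139 regions with more than 3 basal reads in all, the fold of CD11c-high over basal had a median of 17.7 and was lowest, at 4.88, for Fabp7. The other 7 regions had 1 to 3 basal reads, too few for a fold. In pools of sorted cells, more cells that carry the mark and more of the mark per cell cannot be told apart.

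**Figure D1:**
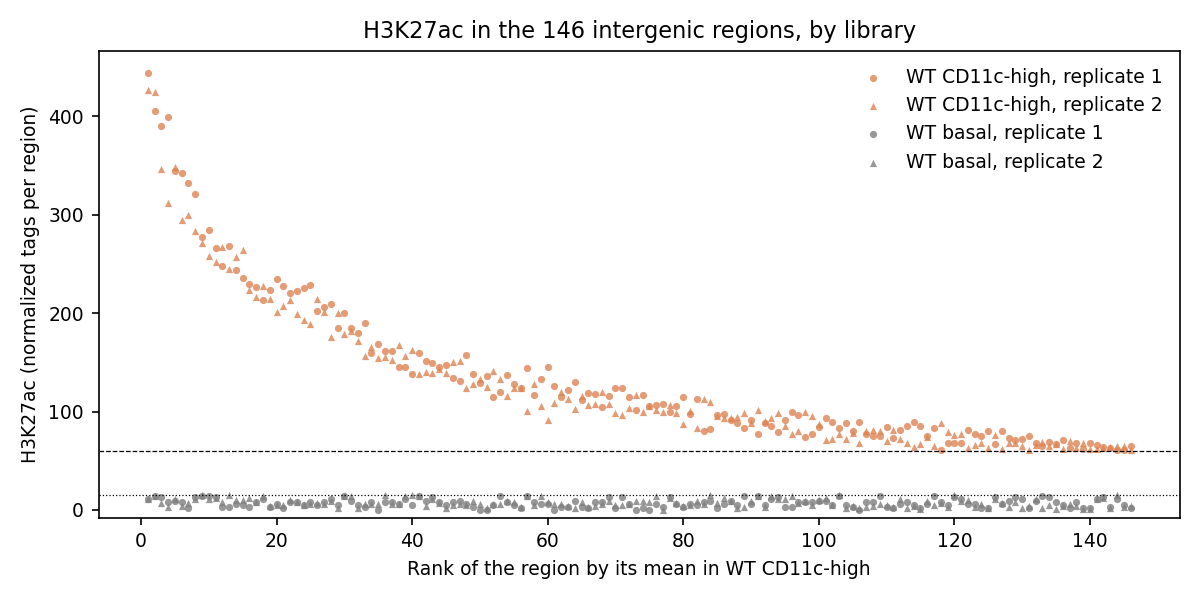
Normalized H3K27ac tags per region (vertical axis) for the 146 regions ranked by their mean in WT CD11c-high (horizontal axis), with 1 point per library. The dashed line at 60 and the dotted line at 15 are the limits of the selection, so the gap between the groups is set by it; within CD11c-high the means span 62.8 to 436.

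At the limits, the region near Gm26682 and the Ccny region 54.3 kb from its start were just inside with 14.76 tags in their higher basal library, and peaks near Nampt and Mir6897 were just outside with 15.82. The Usp47 region was just inside with 60.43 tags in its lower CD11c-high library, and a peak near Nipbl was just outside with 59.98. The Prickle1 region was the farthest kept, at 94.7 kb, and a peak near E030018B13Rik was left out at 100195 bp. The distance limit alone left out 28 peaks and the width limit alone 0. A further 201 peaks met the other limits but were not intergenic.

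The regions were 500 to 4021 bp wide (median 1223), against a median of 1484 bp in the other 1512 intergenic peaks that were higher in CD11c-high. They lay a median of 23.1 kb from the nearest start, against 19.8 kb, and 107 of them (73.3%) lay upstream of it, against 72.6%. Per kb, CD11c-high carried a median of 91.1 tags in the regions and 91.9 in the other intergenic peaks, whereas basal carried 5.08 and 22.8. Both sides entered the selection, so these densities are a description. Of the regions, 141 (96.6%) had been called as a peak in CD11c-high only, against 33.7% of the other intergenic peaks. The same limits largely fix this share. A further 4 regions had been called in both groups and 1 in basal only, against 52.6% and 13.8% of the other intergenic peaks. No repeat lay at the centre of 67.1% of the regions and of 69.0% of the other peaks.

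The highest levels stood near genes of several kinds. The Dppa3 region 8.73 kb from its start had 444.37 and 426.76 tags in CD11c-high, against 11.18 and 11.6 in basal. Dppa3 is known from germ cells and early embryos, was at 0 in the cuprizone RNA table, and Apobec1, which encodes an RNA-editing cytidine deaminase, starts 32.1 kb away. The Alcam region had 405.27 and 424.45 tags in CD11c-high, against 14.38 and 13.71 in basal. Alcam encodes a cell adhesion molecule. The Itga5 region had 390.16 and 346.79 tags in CD11c-high, against 12.78 and 7.38 in basal. Itga5 encodes the alpha chain of the fibronectin receptor. The Id3 region had 399.05 and 311.42 tags in CD11c-high, against 7.99 and 3.16 in basal, and its gene encodes an inhibitor of helix-loop-helix transcription factors.

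Next came Socs6, which encodes a suppressor of cytokine signalling, with 344.83 and 348.33 tags in CD11c-high, against 9.59 and 11.6 in basal. The Pianp region 3.31 kb from its start had 342.17 and 294.5 in CD11c-high, against 7.99 and 4.22 in basal. The Igf1 region 16.0 kb from the start of the gene for insulin-like growth factor 1 had 320.84 and 283.74 tags in CD11c-high, against 12.78 and 11.6 in basal. Also among the highest 12 by nearest gene were the regions of Rps14, Klhl25, 4930526H09Rik and Ch25h. The Rps14 region, with 277.29 and 271.44 tags in CD11c-high, against 14.38 and 14.76 in basal, lies 40.5 kb from the start of Cd74, the invariant chain of MHC class II. The Ch25h region, 39.4 kb from the start of the gene for cholesterol 25-hydroxylase, had 247.96 and 266.82 in CD11c-high, against 3.2 and 8.44 in basal.

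The 146 regions had 132 nearest genes. Ccny and Rap2b had 3 regions each, 10 genes had 2 and 120 had 1. Another of the regions lay within 20 kb of 20 of them and within 100 kb of 35. The Ccny regions, near a gene for a cyclin, had means of 250.0, 175.5 and 150.4 tags in CD11c-high, against 7.67, 3.45 and 9.78 in basal. The Rap2b regions, near a gene for a small GTPase, had means of 158.5, 122 and 117 tags in CD11c-high, against 11.4, 6.63 and 4.77 in basal. A second Dppa3 region began close to the first, with centres 3.76 kb apart, and had 168.86 and 154.56 tags in CD11c-high, against 0.0 and 6.33 in basal. The 2 Igf1 regions were 36.97 kb apart, and the farther one had 63.1 and 63.82 tags in CD11c-high, against 3.2 and 2.11 in basal. Regions of 1 cluster share their surroundings and are not independent of each other.

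Among 15 lists of genes by function (298 genes), 8 genes were nearest to 11 of the regions. No share over all genes or over the other intergenic peaks was counted beside the list counts. They are a description, and enrichment was not tested. Of 32 genes of disease-associated microglia, a state described around plaques and in demyelination, 26 had a listed peak higher in CD11c-high and 0 a lower one, and 3 (Ch25h, Igf1 and Mamdc2) were nearest to 5 of the regions. Of 34 NF-kB, cytokine and chemokine genes, 22 had a higher peak and 2 a lower one, and only Tnfaip3, which encodes an inhibitor of NF-kB signalling, was nearest to any of the regions. The Tnfaip3 region 16.0 kb from its start had 144.87 and 143.02 tags in CD11c-high, against 7.99 and 7.38 in basal. The one 68.0 kb away had 129.76 and 103.04 tags in CD11c-high, against 9.59 and 2.11 in basal. Of 34 interferon and antigen presentation genes, 20 had a higher peak and 1 gene had peaks in both directions, and only H2-Aa, an MHC class II alpha chain, was nearest to a region, with 91.54 and 85.35 tags in CD11c-high, against 3.2 and 11.6 in basal. Of 30 lipid genes 22 had a higher peak and 1 was nearest to regions (Ch25h), and of 21 integrin and migration genes 14 had a higher peak and 1 was nearest to a region (Itga5).

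None of 31 listed transcription factors of activated macrophages, 26 phagolysosome genes or 30 homeostatic microglial genes was nearest to any of the regions. A higher peak was listed for 19, 13 and 6 of them. A lower peak was listed for 3 of the transcription factors, 0 of the phagolysosome genes and 13 of the homeostatic genes, so the homeostatic list had more genes with a lower than with a higher peak. Among lists for other cells, the endothelial list contributed Flt1, with 105.76 and 98.42 tags in CD11c-high, against 6.39 and 7.38 in basal. Flt1 encodes a receptor for vascular endothelial growth factor. The proliferation list contributed Mki67, with 74.65 and 68.44 tags in CD11c-high, against 1.6 and 6.33 in basal. The monocyte, oligodendrocyte, astrocyte, neuron and lymphocyte lists contributed 0 regions. Within 100 kb, though not always nearest, 16 regions had the start of 15 genes of the activation lists. Among them were Gpnmb at 24.1 kb, Tyrobp at 16.5 kb, Icam1 at 17.9 kb and Bhlhe40 at 35.2 kb. The same count was not made for other peaks, so it shows no enrichment.

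CD11c-low cells of the same diet were compared with basal cells to see whether the regions were marked outside CD11c-high. The WT basal libraries of this comparison are those of the selection, and its listed peaks have other bounds. Of the 146 regions, 83 (56.8%) overlapped a listed peak that was higher in CD11c-low, and all 83 passed the test by limma. Among all 5571 peaks higher in CD11c-high, 62.2% overlapped such a peak, and among the other intergenic peaks 60.1% did, so by this measure the regions were near the background. With an overlap of at least 50% of both lengths the share was 41.8% of the regions (61), against 54.4% of the other intergenic and 55.6% of all peaks, so the regions were then below it. Among all listed peaks of the comparison limma called 88.1% higher, which was 4306 peaks where 4334 were listed as higher. Passing the test was thus nearly fixed by the listing. The median log2 fold change was 3.49 over the 86 overlapped peaks, against 1.66 over all listed higher peaks, and 3.46 with the 2 peaks at 0 in both basal libraries set to a bound of 3 reads per library. The selection for low basal values enters this comparison. With the size factors of DESeq2 50 of the regions were called, and with a mean of at least 50 tags 32.

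The Itga5 peak had 188.28 and 160.78 tags in CD11c-low, against 6.57 and 7.59 in basal (log2 fold change on the log2(value + 1) scale 4.44 ± 0.25 SE, limma adjusted p = 7.1e-05). The Pianp peak had 139.64 and 136.49 in CD11c-low, against 4.93 and 3.25 in basal (4.79 ± 0.27, adjusted p = 7.1e-05). The Retn peak, near the gene for the hormone resistin, had 149.84 and 139.01 in CD11c-low, against 8.21 and 8.67 in basal (3.94 ± 0.24, adjusted p = 7.1e-05). The Rai1 peak had 40.01 and 29.31 in CD11c-low, against 0.0 and 0.0 in basal, so no fold is given. The other regions of this kind with the smallest adjusted p were near 1700020M21Rik and Ccny. The groups did not overlap at any of these peaks, which the listing, the limit on basal tags and the choice by adjusted p largely fixed. The share of such peaks over the whole list was not counted.

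CD11c-high was then compared with CD11c-low, which asks whether the mark differed between the gates of 1 diet. The WT CD11c-high libraries are those of the selection. Of the 146 regions, 45 (30.8%) overlapped a listed peak that was higher in CD11c-high, and all 45 passed the test by limma. Among all 5571 peaks the overlap was 4.2% and among the other intergenic peaks 2.98%. Of all listed peaks limma called 53.5% higher, which was 240 peaks where 241 were listed as higher. Passing was thus nearly fixed by the listing here too. None overlapped a peak that was lower. At 40 of the 45 the listed bounds were those of the region itself. The median log2 fold change was 1.21, against 1.26 over all listed higher peaks, so the median change was close to that of all listed peaks. The regions were listed in a larger share, but the CD11c-high libraries that chose the regions enter that share. The excess is a description and was not tested.

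Myh13, a muscle myosin gene, named the region with the largest log2 fold change among the 45. Its listed peak, with bounds other than those of the region, had 145.59 and 134.55 tags in CD11c-high, against 43.56 and 30.32 in CD11c-low (1.92 ± 0.22, limma adjusted p = 0.00025). Myh13 was at 0 in both RNA tables, and the start of Gas7 lies 47.4 kb from the region. The Fam20c region, near a gene for a kinase of secreted proteins, had 183.09 and 172.72 in CD11c-high, against 58.71 and 47.5 in CD11c-low (1.73 ± 0.20, adjusted p = 0.00025). The Inpp5a region had 130.15 and 148.87 in CD11c-high, against 44.5 and 44.47 in CD11c-low (1.62 ± 0.18, adjusted p = 0.00025). The Mb21d2 region had 83.83 and 77.3 in CD11c-high, against 25.57 and 25.27 in CD11c-low (1.62 ± 0.18, adjusted p = 0.00025). Rap2b, 55.2 kb from the region, and 9130015A21Rik completed the 6 with the smallest adjusted p. With libraries scaled over the listed peaks, 22 of the regions were called with TMM in edgeR and 1 with DESeq2.

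Where bounds were identical, the libraries of both comparisons were put on the scale of CD11c-high against basal through the library they share. CD11c-low then carried 29.5% (Rap2b) to 49.0% (Plekhf2) of the CD11c-high level at the 40 regions, with a median of 42.7%. At all 40, both CD11c-low libraries lay above both basal libraries and below both CD11c-high ones, as at 94.6% of all 205 peaks with such values. The order follows largely from the limit on basal tags and from the list of lower CD11c-low peaks. Regions had to pass the authors' fold limit to be listed, so shares above these could not appear. Over 61 regions whose CD11c-low peak shared at least 50% of both lengths, tags per kb in CD11c-low were 32.7% to 96.3% of those in CD11c-high (median 70.5%), with bounds that differ.

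**Figure D2:**
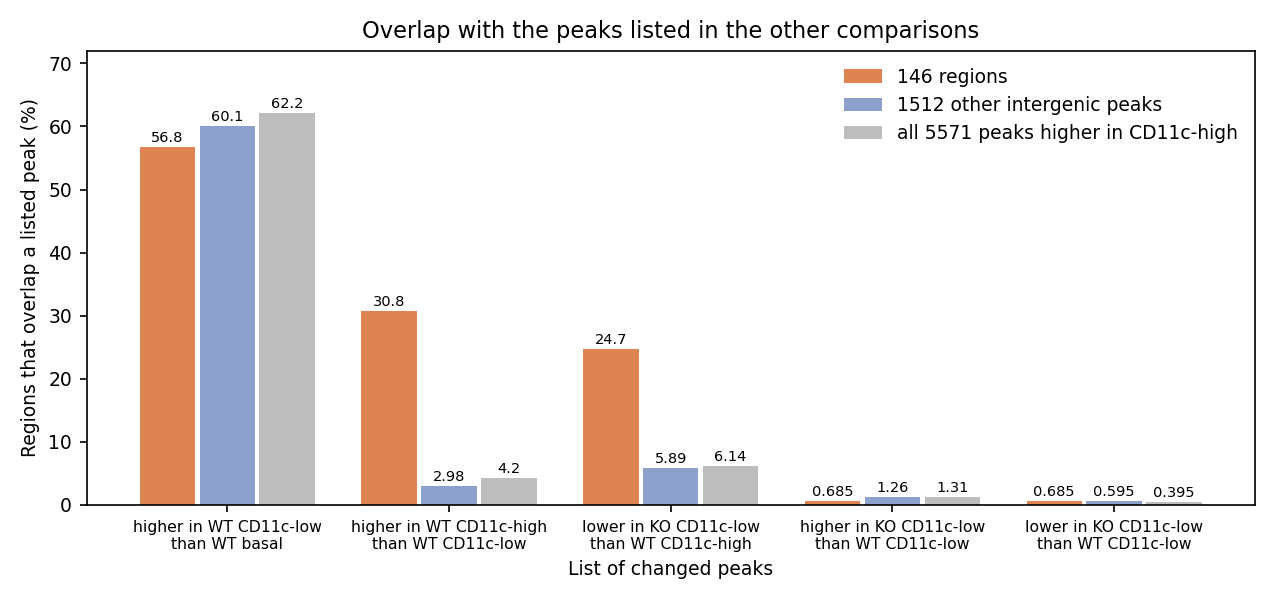
Percent of regions (vertical axis) that overlap by at least 1 bp a listed peak of each other comparison (horizontal axis), for the 146 regions, the 1512 other intergenic peaks and all 5571 peaks higher in CD11c-high. The 146 regions reach 30.8% in the list higher in CD11c-high than CD11c-low, where all peaks reach 4.2%. Every list except those of KO against WT CD11c-low shares libraries with the selection, so these shares are a description.

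The loss of PRMT1 was examined in CD11c-low cells, in which neither group had been used to select the regions. Of the 146 regions, 1 overlapped a listed peak that was higher in KO CD11c-low than in WT CD11c-low and 1 a peak that was lower, and both passed the test by limma. Among all 5571 peaks 1.31% overlapped a higher and 0.395% a lower peak, so both counts were near the background. Over all listed peaks of the comparison limma called 80.4% higher and 18.1% lower. These were 218 peaks where 222 were listed as higher and 49 where 49 were listed as lower, so the listing nearly fixed the passing.

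At the Igf1 region the peak reached 516.73 and 332.46 tags in KO CD11c-low, against 195.87 and 205.07 in WT CD11c-low. The groups did not overlap, the KO libraries differed widely, and the log2 fold change was 1.05 ± 0.29 (SE, n = 2 each, limma adjusted p = 0.013). Igf1 was reversed when libraries were scaled over the listed peaks (-0.24 with TMM in edgeR, adjusted p = 0.442, and -0.24 with DESeq2, adjusted p = 0.587). Without KO replicate 1 the Igf1 value was 0.73, without WT replicate 1 its adjusted p was 0.0801 and without WT replicate 2 it was 0.0724, so its call rested on these libraries. For 1 region in these groups of 2, an exact permutation test cannot go below p = 0.333.

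**Figure D3:**
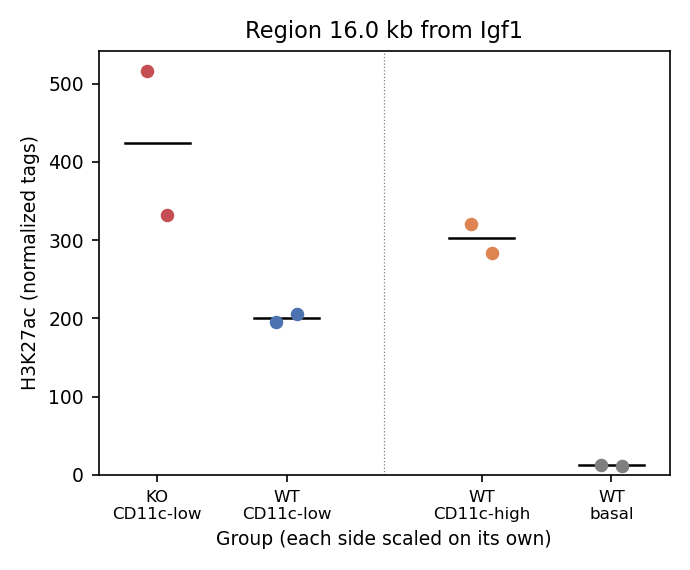
Normalized H3K27ac tags per library (points) and group means (lines) at the region 16.0 kb from Igf1 (vertical axis) by group (horizontal axis). Left of the dotted line are KO and WT CD11c-low from their own comparison, where both KO libraries are above both WT ones, and right of it WT CD11c-high and WT basal, scaled separately and with bounds that differ slightly.

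KO CD11c-low was also compared with WT CD11c-high, in which genotype and gate both differ and cannot be told apart, and whose WT CD11c-high libraries are those of the selection. Of the 146 regions, 36 (24.7%) overlapped a listed peak that was lower in KO CD11c-low and 0 one that was higher. All 36 passed the test by limma. Among all 5571 peaks 6.14% overlapped a lower and 0.305% a higher peak. Of all listed peaks limma called 41.9% lower, which was 381 peaks where 383 were listed as lower, so the listing nearly fixed the passing. The median log2 fold change was -1.43, against -1.42 over all listed lower peaks.

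The Izumo1r region fell to 49.52 and 37.15 in KO CD11c-low, against 247.44 and 241.77 in WT CD11c-high (-2.48 ± 0.21, limma adjusted p = 0.0018). The Rai1 region fell to 39.83 and 34.29 in KO CD11c-low, against 153.59 and 148.57 in WT CD11c-high (-2.00 ± 0.18, adjusted p = 0.0018). The H2-Aa region fell to 31.22 and 36.2 in KO CD11c-low, against 109.86 and 102.43 in WT CD11c-high (-1.63 ± 0.18, adjusted p = 0.0022). The Rap2b region and 2 regions near C330018D20Rik had the same smallest adjusted p of 0.0018. Of the regions in this list and in the list of CD11c-high against CD11c-low, 23 were in both, 51.1% of the 45 and 63.9% of the 36. The lists share the CD11c-high libraries. The same shares over all peaks higher in CD11c-high were not counted, so these are a description.

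On the common scale, KO CD11c-low carried 13.9% (C330018D20Rik) to 49.5% (4930526H09Rik) of the WT CD11c-high level at 30 regions, with a median of 31.6%. Values of all 4 groups were available for 19 regions, each listed as lower in both CD11c-low groups. The KO CD11c-low mean was below the WT CD11c-low mean at 13 of the 19. Both KO libraries were below both WT ones at 9, both were above at 2 and they overlapped at 8. Over all 90 peaks higher in CD11c-high with such values, the KO mean was lower at 86.7%, both KO libraries were below at 61.1% and above at 3.33%. The 19 and the 90 were all listed for values lower than in WT CD11c-high, and the counts show no excess of lower KO values at the regions. The ratio of KO to WT ran from 0.361 at Specc1l to 1.22 at Mb21d2, with a median of 0.846. The Izumo1r region had 41.3 and 31.0 tags in KO CD11c-low, against 81.6 and 87.1 in WT CD11c-low. Its WT CD11c-high libraries had 206 and 201 tags, and its basal libraries 7.99 and 6.33. The Tnfaip3 region had 73.6 and 60.3 in KO CD11c-low, against 61.0 and 50.5 in WT CD11c-low, which overlapped. Its WT CD11c-high libraries had 145 and 143 tags, and its basal libraries 7.99 and 7.38. Neither region was in the list of the direct comparison of KO with WT CD11c-low, so that difference has no test here.

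**Figure D4:**
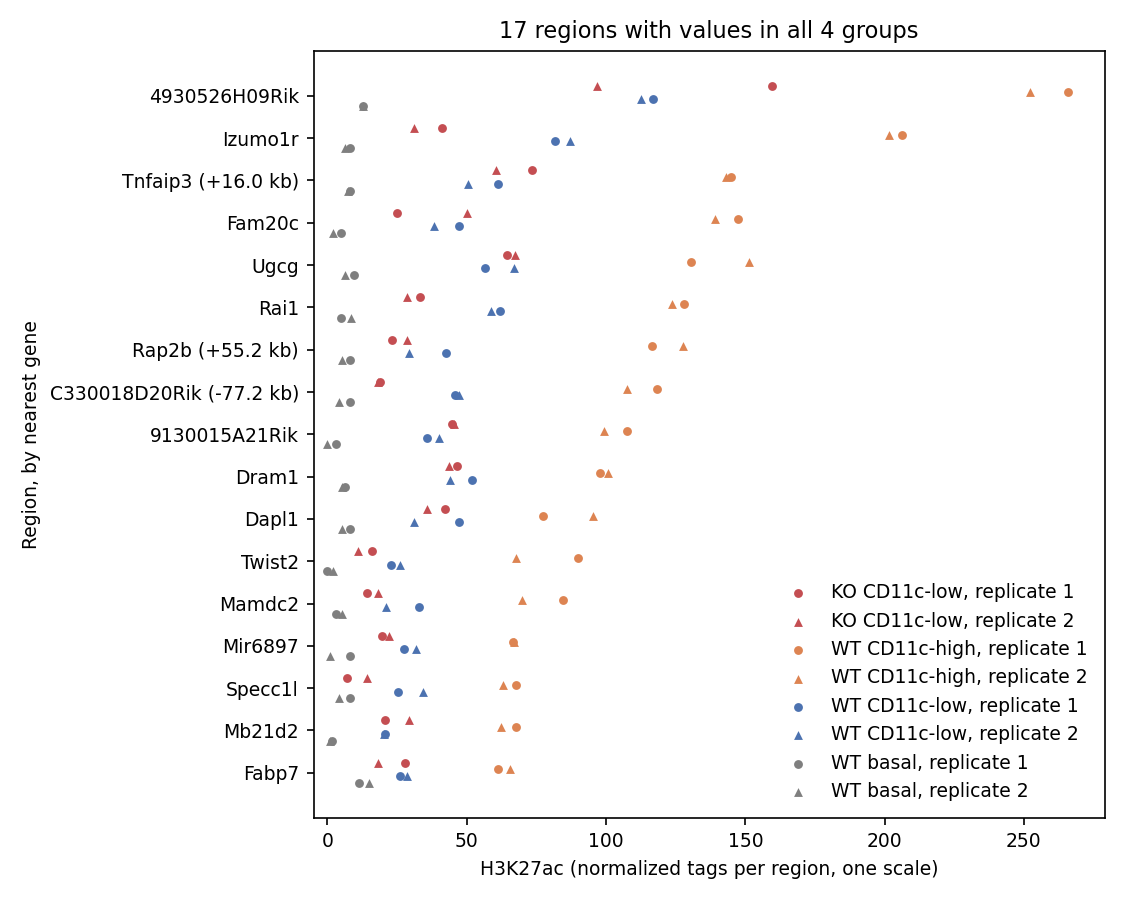
Normalized H3K27ac tags per library on 1 scale (horizontal axis) at 17 of the 19 regions with identical bounds in every comparison used (vertical axis, highest CD11c-high mean at the top). WT CD11c-high lies farthest right and basal mostly farthest left in each region. KO CD11c-low lies left of WT CD11c-low at Izumo1r and Rai1, overlaps it at Tnfaip3, and lies right of it at 9130015A21Rik and narrowly at Mb21d2.

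In all, 118 of the 146 regions (80.8%) overlapped a listed peak of another comparison and 28 did not. Of all 5571 peaks 67.5% overlapped one, and of the other intergenic peaks 64.7%. The regions stood well above all peaks in the lists that reuse the selecting WT CD11c-high libraries (30.8% against 4.2% and 24.7% against 6.14%). In the list of CD11c-low against basal they did not (56.8% against 62.2%). The excess in all is therefore a description and was not tested. Absence from a list does not show that a region was unchanged, since only peaks past the authors' limits are listed.

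RNA means of the authors, per kb of transcript and as a percentile within each table, were set beside the regions as a description. The cuprizone table pools 1 WT CD11c-low and 1 WT CD11c-high library, whereas basal values pool 3 WT and 2 KO libraries, so gate and genotype are mixed and there is no error. Of 103 nearest genes above 0 in both tables, 80 (77.7%) had the higher percentile in the cuprizone table, against 59.4% of 875 genes nearest to the other intergenic peaks and 46.3% of all 15312 genes. At least 20 percentiles higher were 12 of the 103 (11.7%), against 5.37% and 1.24%. The median shift was small, at 3.1 percentiles, against 0.9 and -0.3. Over all matched nearest genes the median percentile was 75.2 in the cuprizone table and 59.0 in the basal table. For genes nearest to the other intergenic peaks it was 74.0 and 69.0. Pianp, Ch25h, Igf1 and Fam20c had the largest shifts. Pianp stood at percentile 98.1 in the cuprizone table and 52.5 in the basal table. Ch25h stood at 98.6 in the cuprizone table and 57.0 in the basal table, and Igf1 at 94.7 in the cuprizone table and 56.9 in the basal table. Fam20c stood at 97.7 in the cuprizone table and 60.5 in the basal table. Tnfaip3 was high in both, at 99.7 in the cuprizone table and 99.5 in the basal table. At 0 in both tables were 24 nearest genes.

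The 12 motifs were searched on both strands in the central 1000 bp of each region. They were PU.1 (GAGGAAGT), the ETS core (GGAAGT, which lies within PU.1), AP-1 (TGANTCA), C/EBP (TTGCNNAA), IRF (GAAANNGAA), NF-kB (GGGANTTTC), the MiT/TFE E-box (TCACGTG), RUNX (TGTGGTT), the nuclear receptor site (AGGTCA), the MAF site (TGCTGAC), MEF2 (CTATTTNTA) and SMAD (GTCTAGAC). An AP-1 match stood in 57 of the regions (39.0%, exact 95% interval 31.1 to 47.5), against 35.6% of the other intergenic peaks and 26.0% of the 497 intergenic peaks that were lower in CD11c-high. A C/EBP match stood in 45.2% of the regions (37.0 to 53.7), against 40.2% and 33.6% of those peaks. An IRF match stood in 39.7% (31.7 to 48.1), against 32.6% and 29.2%. A RUNX match stood in 26.0% (19.1 to 33.9), against 25.5% and 17.9%. The intervals cover counting error only, and those of the regions held the share of the other gained intergenic peaks for each of these 4 motifs. Over whole regions, which were narrower than the other intergenic peaks, AP-1 stood in 47.9% of the regions, against 43.8% of the other gained and 43.7% of the lower peaks. The order was then turned for C/EBP, with 44.5% of the regions, against 50.4% and 47.1%, and for RUNX, with 30.1% of the regions, against 36.8% and 33.0%. The shares therefore depend on the window.

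Within 1000 bp, PU.1 matches stood in 15.8% of the regions, 16.3% of the other gained and 15.9% of the lower intergenic peaks. In the central 400 bp the regions were lowest, with 4.79%, against 7.74% and 8.45%, and over whole regions with 16.4%, against 20.7% and 22.7%. ETS cores stood in 65.1%, 68.5% and 65.0% within 1000 bp, and in 33.6%, 38.8% and 37.6% within 400 bp. In the central 1000 bp, NF-kB matches stood in 6 of the 146 regions, against 88 of the 1512 other gained intergenic peaks. MiT/TFE E-boxes stood in 6.16% of the regions, against 6.42% of those peaks, and MAF sites in 18.5%, against 19.0%. MEF2 stood in 7.53%, against 5.75%, SMAD in 2.05%, against 1.26%, and nuclear receptor sites in 49.3%, against 52.2%. The exact 95% intervals of the regions held the share of those peaks for each of these motifs. The regions had a median of 3.0 different motifs, as did the other intergenic peaks. Their median GC content was 46.2%, against 46.7% and 47.5%.

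**Figure D5:**
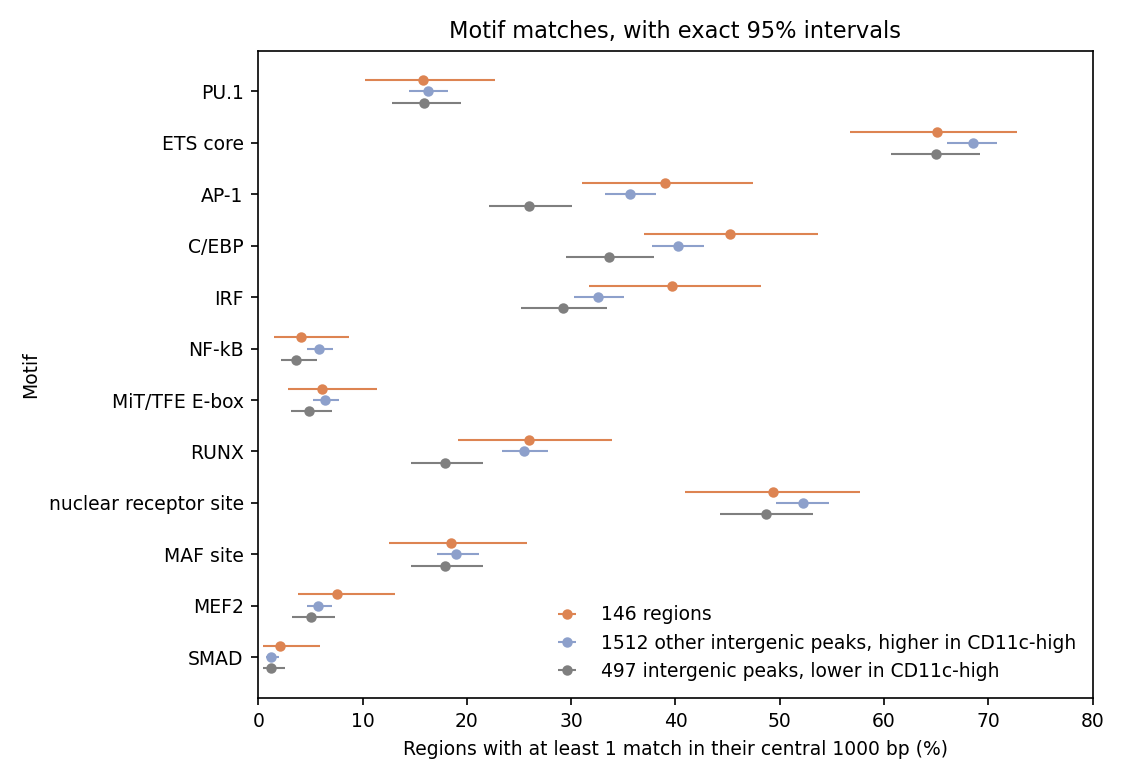
Percent of regions with at least 1 match in the central 1000 bp (horizontal axis) for each motif (vertical axis), with exact 95% intervals that cover counting error. AP-1 reaches 39.0% in the 146 regions, 35.6% in the other gained intergenic peaks and 26.0% in intergenic peaks lower in CD11c-high, while PU.1 lies at 15.8%, 16.3% and 15.9%.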

How the data were processed

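Microglia were sorted from brain, and H3K27ac ChIP-seq reads were, per the labels and the study's methods, mapped with Bowtie2, inspected with FastQC 0.11.9, freed of duplicates with SAMtools 0.1.19, and turned into peaks against input with HOMER. The deposited signal is a normalized tag count per peak and library, which the authors scaled within each comparison. Only peaks past the authors' limits are listed, and their log2 fold changes and p-values were not used. The methods name hg19 and the labels also mm10. Of 13981 listed peaks with a matched transcript, 99.46% lay within 100 bp of the stated distance in GRCm38, which was used. A second set of deposited tables lists genes and was treated as RNA. The deposited BaseMean, a signal averaged by the authors over libraries, was divided by transcript length and ranked. The 19 columns of single libraries in these tables stayed unused.

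For every library the values came in steps of what 1 read is worth (100.0% of them whole, within 0.006 reads divided by that step plus 0.003), which gave relative depth and whole reads. The total depth is not given in the sources used here. PCR reads without molecular identifiers carry more than counting error. Listed peaks, higher and lower together, were tested per comparison with limma 3.58.1 on log2(value + 1), two-sided, with Benjamini-Hochberg adjustment over them, and called at an adjusted p under 0.05 and an absolute log2 fold change of at least 1. All were already selected by the authors for change between the same groups, so a small p-value was largely fixed by the listing. With 2 libraries per group, these p-values are a description. Overlap meant at least 1 bp. Fits were tested on simulated data. Alternatives were a pseudocount of 5, a mean of at least 50 tags, edgeR 4.0.16 and DESeq2 1.42.0 on recovered reads, a replicate block, leaving out each library, other limits and other windows.

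The members, gene lists and motifs were chosen with earlier results of these data known. Regions named are the 12 highest in CD11c-high by nearest gene, up to 3 per gene list, up to 6 per comparison and direction by smallest adjusted p, genes with 3 regions, and those next to a limit. Mamdc2, Slc35c1, Fabp7, Plekhf2, Specc1l, the second Dppa3 region and genes within 100 kb were named, and the 7 regions with printed sequences picked, after their values were seen. Some items are not reported here. Work used Python 3.11.15, numpy 2.4.6, pandas 2.3.3, scipy 1.17.1, matplotlib 3.10.9, pysam 0.24.0 and R 4.3.3.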

Additional observations from a re-analysis of the deposited data

How the results depend on the processing

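The number of regions was 58 with limits of 10 and 80 tags and 252 with limits of 20 and 50, and 156 to 206 when each library was left out in turn. For CD11c-low against basal, 83 regions were called in the fit without a replicate block, 83 with the replicate block, 83 to 83 without each library, 32 with a mean of at least 50 tags and 50 with the size factors of DESeq2. For CD11c-high against CD11c-low, 45 were called with or without the replicate block, 35 to 42 without each library, 22 with TMM over the listed peaks and 1 with the size factors of DESeq2. For KO CD11c-low against WT CD11c-high, 36 were called with or without the block and 32 to 34 without each library. For KO CD11c-low against WT CD11c-low, 2 were called with or without the block, 1 to 2 without each library, 1 with TMM and 1 with the size factors of DESeq2. The Igf1 value was -0.241 with TMM and -0.245 with DESeq2, and 0.727 to 1.362 without each library. Scaling over the listed peaks treats their median as unchanged, which these lists, chosen for change, need not meet. Same-numbered libraries deviated together weakly or not at all (correlations -0.082 to 0.136), and no label pairs them. The block removed no call. The share of regions with a motif moved in 12 settings of the window, mostly falling with the central 400 bp. Depth limits the basal side, where medians were 4.0 and 6.0 reads a region.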
